A study of Homo sapiens with 6 samples.

Results

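A set of 10 genes that act in RNA polymerase II elongation and DNA untwisting was followed in human embryonic stem cells given the EZH2 and EZH1 inhibitor UNC1999 or its analog UNC2400. They are the topoisomerase genes TOP1 and TOP2B, the elongation factor genes SUPT5H and SUPT6H, the kinase genes CDK9, CDK12 and CDK13, the kinase inhibitor gene HEXIM1, and the elongation cofactor genes ELL2 and AFF4. Each was taken by its gene name from a count table of 53712 names, and all 10 were found and were expressed enough to be tested. The cells were H9, an established human embryonic stem cell line, in RSeT, a medium for naive-type pluripotent cells. In every library the medium also held DZNep at 10 nM, a blocker of S-adenosylhomocysteine hydrolase. It held TSA at 5 nM as well, that is trichostatin A, which inhibits histone deacetylases. The first group received 2.5 µM UNC1999. The other received 2.5 µM UNC2400, a closely related compound with added N-methyl groups and low activity on the enzyme. Treatment began 24 h after passage and lasted 48 h, with 3 poly(A) RNA libraries per compound and none without either compound. UNC1999 against UNC2400 is therefore the 1 pair of compounds compared, at matched dose and time, and H9 is 1 line. Separate cultures are not stated for the replicates. A p-value here therefore reflects the scatter of 3 libraries, part of which may be technical.

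As background, RNA polymerase II pauses soon after it starts, held by DSIF, of which SUPT5H encodes the large subunit, and by the factor NELF. P-TEFb, made of CDK9 and a cyclin T, phosphorylates these factors and the polymerase and releases it. The 7SK particle keeps P-TEFb inactive through HEXIM1, while the super elongation complex, with AFF4 as scaffold and ELL2 as an elongation factor, brings active P-TEFb to genes. CDK12 and CDK13 act with cyclin K on the elongating polymerase, and SUPT6H is a histone chaperone that travels with it. TOP1 and TOP2B remove the supercoils that transcription makes.

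Promoters are shown for 3 genes that took different courses, HEXIM1 (higher in UNC1999), TOP2B (lower) and TOP1 (did not pass the test). Each run is the 250 bases before a RefSeq transcript start, 5′ to 3′ on the gene's strand, in build GRCh38.p14, which is not the build of the counts. The windows are chr17:45148225-45148474 on the plus strand for HEXIM1, chr3:25664908-25665157 on the minus strand for TOP2B (the farther upstream of 2 listed starts), and chr20:41028572-41028821 on the plus strand for TOP1. Capitals mark 4 motifs on either strand: the TATA box (TATAAA), the CCAAT box (CCAAT), the GC box (GGGCGG) and the E box (CACGTG).
HEXIM1: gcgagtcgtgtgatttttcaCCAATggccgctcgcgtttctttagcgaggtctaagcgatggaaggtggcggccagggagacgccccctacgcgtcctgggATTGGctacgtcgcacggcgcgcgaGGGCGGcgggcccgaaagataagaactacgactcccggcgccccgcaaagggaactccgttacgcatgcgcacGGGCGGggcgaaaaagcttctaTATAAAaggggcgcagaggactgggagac
TOP2B: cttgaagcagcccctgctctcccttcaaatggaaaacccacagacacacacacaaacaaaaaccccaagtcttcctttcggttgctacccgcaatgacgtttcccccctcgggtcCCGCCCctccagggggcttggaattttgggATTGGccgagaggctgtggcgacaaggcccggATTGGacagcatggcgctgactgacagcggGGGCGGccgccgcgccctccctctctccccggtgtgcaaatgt
TOP1: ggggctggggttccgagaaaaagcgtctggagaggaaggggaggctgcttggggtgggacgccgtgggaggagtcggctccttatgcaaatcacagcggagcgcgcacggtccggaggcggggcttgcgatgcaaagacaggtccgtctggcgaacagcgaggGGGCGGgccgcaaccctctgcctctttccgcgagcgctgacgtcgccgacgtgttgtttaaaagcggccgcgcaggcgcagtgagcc
The HEXIM1 window held 1 TATA box, 2 CCAAT boxes and 2 GC boxes, that of TOP2B 2 CCAAT boxes and 2 GC boxes, and that of TOP1 1 GC box. The window of the other TOP2B start, not shown, held 1 GC box and no CCAAT box. Windows were found for 9 of the 10 genes, ELL2 being the exception, and among them the TATA box occurred in that of HEXIM1 alone. Of 35116 RefSeq windows of this length, 10.7% held the TATA box, 32.0% the CCAAT box, 42.6% the GC box and 6.34% the E box. No match overlapped another in the runs shown. They describe letters and show no factor at work.

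Total counts ran between 33522942 and 34481593 in UNC1999 libraries and between 29699441 and 42345448 in UNC2400 libraries. UNC1999 replicate 1 lay apart from its group on the first principal component (67.8% of the variance), with a score of 20.1. Scores of 39.3 and 41.4 were found for UNC1999 replicates 2 and 3, and scores from -35.2 to -31.6 for UNC2400. The 10 pluripotency markers summed to between 5848 and 6459 CPM (counts scaled to library size with TMM factors) in UNC1999 and between 6849 and 6918 CPM in UNC2400. Of these, 4 fell (POU5F1 most, by 0.44 on the log2 scale), 1 rose (PRDM14, by 0.34) and 5 did not pass. In a fit with offsets for gene length and GC content, described below, 8 of the 10 pluripotency markers fell and 1 rose. The 12 markers of fibroblasts or feeder cells summed to between 337 and 385 CPM in UNC1999 and between 386 and 413 CPM in UNC2400. Of the 8 of these that were tested, 5 fell and 3 rose. COL1A1 had 33.8 ± 2.80 CPM in UNC1999 and 57.2 ± 4.62 CPM in UNC2400, and VIM, which many cell types express, 146 ± 18.9 CPM in UNC1999 and 73.2 ± 3.80 CPM in UNC2400 (SD, n = 3 each). The other 4 were near 0: COL3A1 had 14 counts over the UNC1999 libraries and 13 over the UNC2400 libraries, DCN had 4 and 1, LUM 1 and 0, and FAP 2 and 2. The 12 naive-state markers summed to between 336 and 350 CPM in UNC1999 and between 383 and 394 CPM in UNC2400. Of the 9 of these that were tested, 6 rose, DNMT3L most (by 1.73 on the log2 scale). The other 3 fell: NLRP7 by 0.80, SUSD2 by 0.41 and DPPA5 by 0.28. The naive-state factor gene KLF17 had 41 counts over the UNC1999 libraries and 16 over the UNC2400 libraries, and was not tested. The pluripotency, naive-state and fibroblast or feeder sums were all lower in every UNC1999 library than in any UNC2400 library, though not each of their members. Their part in the results below was not tested. In bulk RNA, fewer cells of a type and less RNA per cell cannot be told apart.

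Of the 10 genes, 6 fell, 2 rose and 2 did not pass the test in UNC1999. TOP2B fell most and HEXIM1 rose most. The rise of CDK9 was lost in several alternatives, and offsets for gene length and GC content ended 5 of the 8 calls, as given below. The test was edgeR's quasi-likelihood F test over all 17596 expressed genes, with a threshold of 0.05 on the Benjamini-Hochberg adjusted p. Across those genes 52.7% passed, 26.8% as higher and 25.9% as lower, so a call in a single gene was common. The median log2 fold change of the 10 was -0.20, against 0.02 for all genes tested. Their median absolute log2 fold change was 0.25, against 0.28 for all genes and 0.42 for the genes that passed. UNC1999 and UNC2400 values did not overlap for 8 of the 10 genes, where 60.6% of all genes showed no overlap. Together the 10 genes took 0.137%, 0.131% and 0.131% of counts in UNC1999 replicates 1 to 3, against 0.153%, 0.148% and 0.155% in UNC2400 replicates 1 to 3. The 2 sets of shares did not overlap (exact two-sided permutation p = 0.1, the smallest that 3 against 3 libraries allow).

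**Figure D1:**
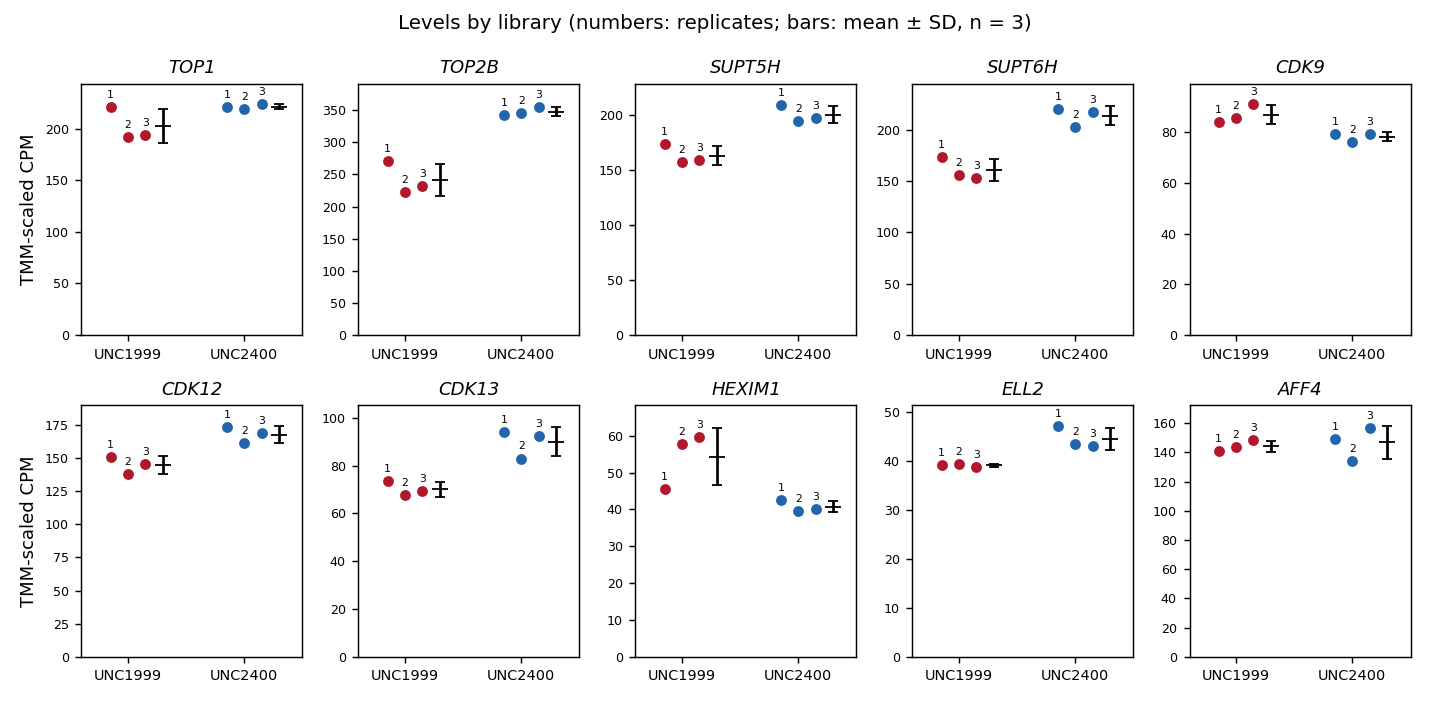
TMM-scaled CPM (vertical axis, from 0) of the 10 genes in each library, with UNC1999 in red and UNC2400 in blue. Small numbers are replicates and bars are mean ± SD (n = 3). All UNC1999 points lie below all UNC2400 points for TOP2B, SUPT5H, SUPT6H, CDK12, CDK13 and ELL2, and above them for CDK9 and HEXIM1.

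The 2 topoisomerase genes differed in how far they moved. TOP2B, which encodes the type II enzyme of non-dividing as well as dividing cells, had 270, 223 and 232 CPM in UNC1999 replicates 1 to 3, against 342, 346 and 355 CPM in UNC2400 replicates 1 to 3. Every UNC1999 library lay below every UNC2400 library, with UNC1999 replicate 1 the nearest to them. The log2 fold change of TOP2B was -0.52 ± 0.06 (SE; adjusted p = 3.97e-06), so its level fell by 30.4%. A lower log2 fold change was found for 12.1% of all genes tested. TOP1, the type I enzyme that nicks 1 strand, had 221, 191 and 194 CPM in UNC1999 replicates 1 to 3, against 221, 219 and 224 CPM in UNC2400 replicates 1 to 3. UNC1999 replicate 1 lay among the UNC2400 libraries and the other UNC1999 libraries lay below them all. TOP1 was at -0.13 ± 0.06 on the log2 scale (SE; adjusted p = 0.0686; 95% interval -0.25 to -0.01). Whether TOP1 passes depends on the setting: without UNC1999 replicate 1 it was at -0.22 (adjusted p = 0.000368), and 1 other setting, a replicate block, moved it across the threshold too. In the authors' deposited table TOP1 stood at -0.15 (log2) with an adjusted p of 0.0449, and 8 of the 10 genes had an adjusted p under 0.05, where 44.0% of its genes did.

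Counted within each library, which needs no scaling, the ratio of TOP2B to TOP1 counts was 1.22, 1.16 and 1.20 in UNC1999 replicates 1 to 3, against 1.55, 1.58 and 1.59 in UNC2400 replicates 1 to 3. The groups were parted, and UNC1999 replicate 1 was not set apart from its group in this ratio. TOP2A, the type II enzyme of dividing cells, fell further than TOP2B, with 412 ± 39.9 CPM in UNC1999 and 658 ± 14.4 CPM in UNC2400 (SD, n = 3 each). TOP2A had a log2 fold change of -0.68 ± 0.06. Accordingly the ratio of TOP2B to TOP2A counts was higher in UNC1999, at 0.587 ± 0.0133, than in UNC2400, at 0.528 ± 0.00258 (SD, n = 3 each). Among the 9 other topoisomerase and topoisomerase-repair genes, 3 fell, 1 rose and 5 did not pass. TDP1, which clears stalled TOP1 from DNA, fell by 0.31 ± 0.06 on the log2 scale. The gene for TDP2, its counterpart for type II enzymes, rose by 0.18 ± 0.05, a rise that ended at 0.01 (adjusted p = 0.902) in a fit with offsets for gene length and GC content, described below. TOP3B fell by 0.26 ± 0.07 (log2, SE), but did not pass without UNC2400 replicate 1 (adjusted p = 0.051).

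Both elongation factor genes that ride with the polymerase fell. SUPT5H had 173, 157 and 159 CPM in UNC1999 replicates 1 to 3, against 208, 194 and 197 CPM in UNC2400 replicates 1 to 3. All UNC1999 values were the lower ones. On the log2 scale SUPT5H fell by 0.30 ± 0.05 (SE; adjusted p = 0.000217). SUPT6H had 173, 156 and 153 CPM in UNC1999 replicates 1 to 3, against 221, 203 and 218 CPM in UNC2400 replicates 1 to 3. Its groups did not overlap either, and its log2 fold change was -0.41 ± 0.06 (SE; adjusted p = 1.58e-05). SUPT6H shares 99 exon bases with SDF2 on the other strand in GENCODE release 29, and the strand setting of the counting is not given, so reads there cannot be told apart. The partner of SUPT5H in DSIF, SUPT4H1, had 56.1 ± 1.56 CPM in UNC1999 and 56.0 ± 0.105 CPM in UNC2400 (SD, n = 3 each), or 0.00 ± 0.05 on the log2 scale (SE; adjusted p = 0.961). With length and GC offsets SUPT4H1 fell by 0.24 (log2; adjusted p = 0.000769), and SUPT5H fell by 0.18 in that fit. The ratio of SUPT5H to SUPT4H1 counts was 3.12, 2.85 and 2.74 in UNC1999 replicates 1 to 3, against 3.72, 3.46 and 3.52 in UNC2400 replicates 1 to 3. For SUPT6H over SUPT5H it was 0.988 ± 0.0179 in UNC1999 and 1.07 ± 0.0321 in UNC2400 (SD, n = 3 each), again with no overlap. Of the 5 other DSIF and NELF genes, NELFA, which encodes a subunit of the pausing factor, rose by 0.35 ± 0.05 and the other 4 did not pass.

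CDK9 and HEXIM1, the kinase of P-TEFb and its inhibitor, were higher in UNC1999, though neither call held in every alternative. CDK9 had 84.2, 85.5 and 91.2 CPM in UNC1999 replicates 1 to 3, against 79.4, 76.3 and 79.5 CPM in UNC2400 replicates 1 to 3. The groups did not overlap but lay close. CDK9 rose by 0.15 ± 0.05 on the log2 scale (SE; adjusted p = 0.0199). That call ended with DESeq2 (adjusted p = 0.0514), with no low-count filter (0.108), and without UNC1999 replicate 3 (0.192), UNC2400 replicate 2 (0.107) or UNC2400 replicate 3 (0.055). In the authors' deposited table CDK9 had an adjusted p of 0.055. HEXIM1 had 45.5, 57.7 and 59.7 CPM in UNC1999 replicates 1 to 3, against 42.6, 39.7 and 40.1 CPM in UNC2400 replicates 1 to 3. UNC1999 replicate 1 was only just above the UNC2400 libraries, while the other UNC1999 libraries stood clear of them. HEXIM1 rose by 0.42 ± 0.08 (log2, SE; adjusted p = 0.000336), and by 0.51 without UNC1999 replicate 1. With length and GC offsets HEXIM1 was at 0.07 (log2; adjusted p = 0.357) and did not pass. HEXIM1 shares 520 exon bases with an antisense gene in GENCODE release 29, with the limit on strand given for SUPT6H.

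Other P-TEFb and 7SK genes were read beside them. CCNT1, the main cyclin partner of CDK9, rose to 105 ± 7.41 CPM in UNC1999, against 80.7 ± 1.89 CPM in UNC2400 (SD, n = 3 each), or 0.38 ± 0.06 on the log2 scale. MEPCE, the enzyme that caps 7SK RNA, rose by 0.36 ± 0.06, and HEXIM2, a relative of HEXIM1 at a level near 1 CPM, by 0.82 ± 0.24 (log2, SE). LARP7, which binds and protects 7SK, had 127 ± 21.4 CPM in UNC1999 and 150 ± 21.6 CPM in UNC2400 (adjusted p = 0.0514), a spread wider than that of any of the 10 genes relative to its mean. The splicing factor gene SRSF2, whose protein also binds at 7SK, fell by 0.15 ± 0.06, a call that ended without any 1 of 5 of the libraries, the exception being UNC1999 replicate 1. In all, 3 of 9 tested genes of this list rose, 1 fell and 5 did not pass. With length and GC offsets 4 rose and 3 fell, SRSF2 and LARP7 among the latter. In that fit SRSF2 fell by 0.49 (adjusted p = 3.01e-05) and LARP7 by 0.39 (adjusted p = 0.00216) on the log2 scale. RN7SK itself is not polyadenylated. It had 35 counts over the UNC1999 libraries and 27 over the UNC2400 libraries, and was not tested.

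The ratio of HEXIM1 to CDK9 counts was 0.540, 0.675 and 0.655 in UNC1999 replicates 1 to 3, against 0.536, 0.520 and 0.504 in UNC2400 replicates 1 to 3. UNC1999 replicate 1 nearly met the highest UNC2400 library. Without UNC1999 replicate 1 the log2 difference of this ratio was 0.36, against 0.26 with it. For CDK9 over CCNT1, the ratio was 0.828 ± 0.0496 in UNC1999 and 0.971 ± 0.0255 in UNC2400 (SD, n = 3 each), with no overlap between the groups.

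The cyclin K kinases fell, unlike CDK9. With length and GC offsets none of these kinase genes passed, with CDK12 at -0.04, CDK13 at -0.05 and CDK9 at -0.09 (log2). CDK12 had 151, 138 and 145 CPM in UNC1999 replicates 1 to 3, against 173, 161 and 169 CPM in UNC2400 replicates 1 to 3. CDK13 had 73.6, 67.6 and 69.2 CPM in UNC1999 replicates 1 to 3, against 94.3, 83.0 and 92.5 CPM in UNC2400 replicates 1 to 3. For both genes all UNC1999 values were below all UNC2400 values. The log2 fold change was -0.21 ± 0.05 for CDK12 (SE; adjusted p = 0.00268) and -0.36 ± 0.06 for CDK13 (SE; adjusted p = 6.32e-05). The ratio of CDK12 to CDK13 counts was 2.07 ± 0.032 in UNC1999 and 1.87 ± 0.0625 in UNC2400 (SD, n = 3 each), with no overlap. Their cyclin gene CCNK had 105 ± 3.01 CPM in UNC1999 and 99.6 ± 6.34 CPM in UNC2400 (adjusted p = 0.254). The 4 DNA repair genes whose expression is known to fall when CDK12 is depleted in human cells were all lower, where 25.9% of all genes were. These 4 span 73.3 kb (FANCI) to 130 kb (ATR). Of genes over 80.2 kb 51.9% were lower, as were 32.0% of those from 31.2 to 80.2 kb. All 4 were lower with length and GC offsets too. FANCD2 fell by 0.60 ± 0.06, FANCI by 0.59 ± 0.07, ATR by 0.56 ± 0.08 and BRCA1 by 0.33 ± 0.06 (log2, SE). Whether the level of CDK12 has a part in this was not tested.

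In the super elongation complex, ELL2 fell and AFF4 did not pass. ELL2 had 39.1, 39.3 and 38.8 CPM in UNC1999 replicates 1 to 3, against 47.1, 43.4 and 42.9 CPM in UNC2400 replicates 1 to 3. The UNC1999 values were almost equal and all lower. ELL2 fell by 0.19 ± 0.06 on the log2 scale (SE; adjusted p = 0.00957), a call that ended without UNC2400 replicate 1, the highest library (-0.15; adjusted p = 0.0649). ELL2 has 4 annotated processed pseudogenes, so its counts are uncertain to the extent that reads match them too. AFF4 had 141, 144 and 148 CPM in UNC1999 replicates 1 to 3, against 149, 134 and 157 CPM in UNC2400 replicates 1 to 3. The UNC1999 values lay within the UNC2400 range. On the log2 scale AFF4 was at -0.02 (95% interval -0.15 to 0.10; adjusted p = 0.754). AFF1, the alternative scaffold, fell by 0.17 ± 0.05, a call that ended without UNC2400 replicate 3 (adjusted p = 0.054), and the paralogs AFF2 and AFF3 fell by 0.79 ± 0.08 and 0.63 ± 0.17 (log2, SE). ELL, the relative of ELL2, had 17.4 ± 1.20 CPM in UNC1999 and 17.4 ± 0.349 CPM in UNC2400 (SD, n = 3 each; adjusted p = 0.993). The ELL-associated factor gene EAF1 rose by 0.18 ± 0.06, and MLLT1, a reader of acetylated histones, fell by 0.19 ± 0.06 (log2, SE). Of 10 tested genes of this list 4 fell, 1 rose and 5 did not pass.

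Within libraries, the ratio of AFF4 to AFF1 counts was 1.16 ± 0.068 in UNC1999 and 1.04 ± 0.0508 in UNC2400, and that of ELL2 to ELL 2.25 ± 0.161 in UNC1999 and 2.55 ± 0.13 in UNC2400 (SD, n = 3 each). All 9 ratios compared had groups that did not overlap. No share over other gene pairs was computed, and 60.6% of all single genes tested showed no overlap. The ratios carry no offset for gene length or GC content. Each had an exact two-sided permutation p of 0.1, also adjusted over the 9, which is the smallest that this design allows, so none could pass 0.05.

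**Figure D2:**
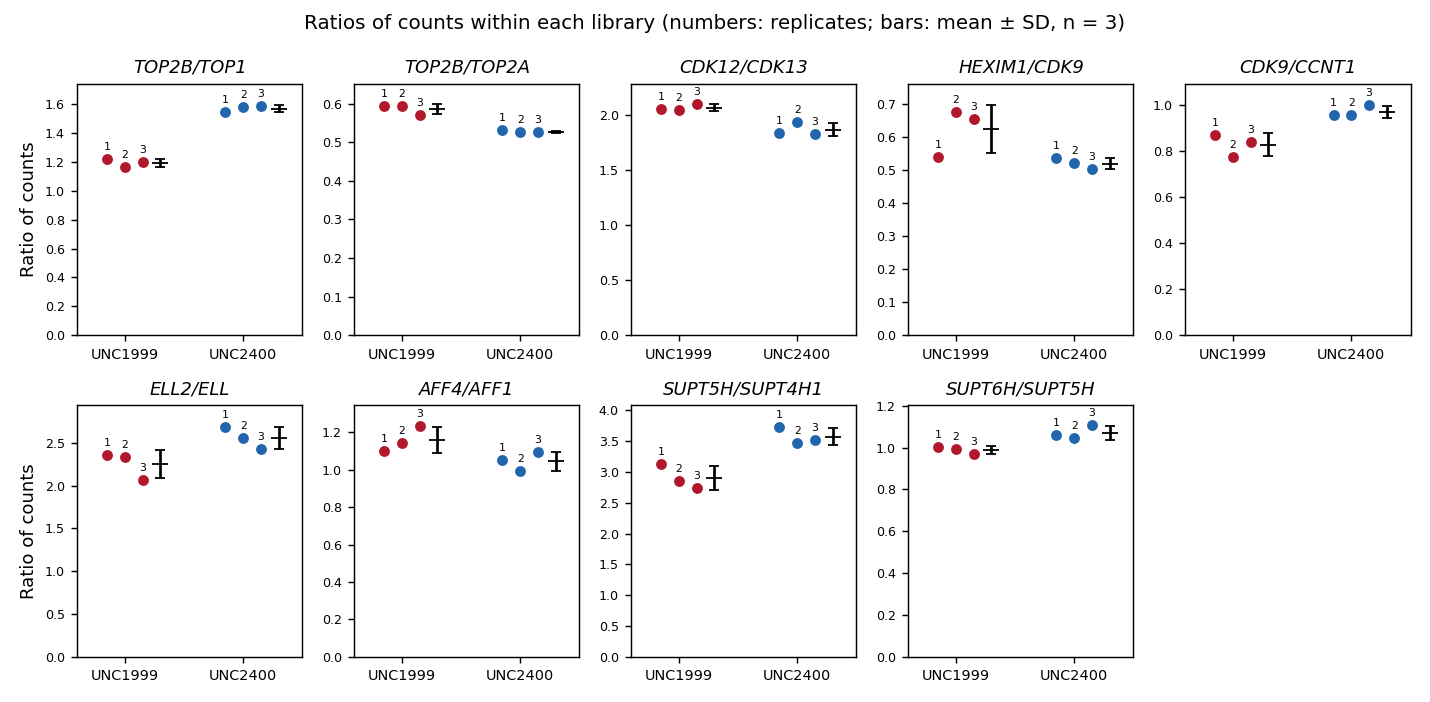
Ratio of the counts of 2 genes within each library (vertical axis, from 0), with UNC1999 in red and UNC2400 in blue. Small numbers are replicates and bars are mean ± SD (n = 3). In each of the 9 panels the groups do not overlap, though they nearly meet for AFF4 over AFF1 (lowest UNC1999 library 1.10, highest UNC2400 library 1.09) and for HEXIM1 over CDK9 (0.540 in UNC1999 replicate 1, 0.536 in the highest UNC2400 library).

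Partner genes with other roles in elongation went both ways. Across all 9 partner lists, 16 of 73 tested genes rose, 22 fell and 35 did not pass, which is near the share of all genes, and their median log2 fold change was 0.00. In the PAF1 complex and among histone chaperones, 3 of 10 rose and 5 fell. PAF1, the namesake subunit, rose by 0.42 ± 0.05, while CDC73, another subunit, fell by 0.22 ± 0.05 and SUPT16H and SSRP1, the subunits of the chaperone FACT, fell by 0.32 ± 0.06 and 0.19 ± 0.06 (log2, SE). Of 12 RNA polymerase II subunit genes 6 rose and 1 fell, but with length and GC offsets 1 rose and 4 fell. POLR2H rose by 0.27 ± 0.06 and POLR2E fell by 0.24 ± 0.05, whereas POLR2A, the largest subunit, had 268 ± 9.73 CPM in UNC1999 and 269 ± 21.7 CPM in UNC2400 (adjusted p = 0.987). Among TFIIS, TFIIF and elongin genes, TCEA1 (TFIIS, which restarts backtracked polymerase) rose by 0.18 ± 0.05, RECQL5, a helicase that binds the polymerase, fell by 0.25 ± 0.07, and the other 6 tested did not pass. TCEA1 did not pass without UNC1999 replicate 3 (adjusted p = 0.075) or UNC2400 replicate 1 (adjusted p = 0.0529). In the TFIIH and Mediator kinase list 3 of 6 fell and none rose, but with the offsets 1 fell (CCNC) and 1 rose (CDK8, by 0.25; adjusted p = 0.00225). Without the offsets the falls were those of MNAT1, by 0.29 ± 0.07, CCNH by 0.22 ± 0.07 and CCNC by 0.21 ± 0.06 (log2, SE). CCNH did not pass without UNC2400 replicate 2 (adjusted p = 0.0891). CDK7, the TFIIH kinase of the polymerase tail, had 61.0 ± 4.8 CPM in UNC1999 and 56.7 ± 0.826 CPM in UNC2400 (adjusted p = 0.141).

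**Figure D3:**
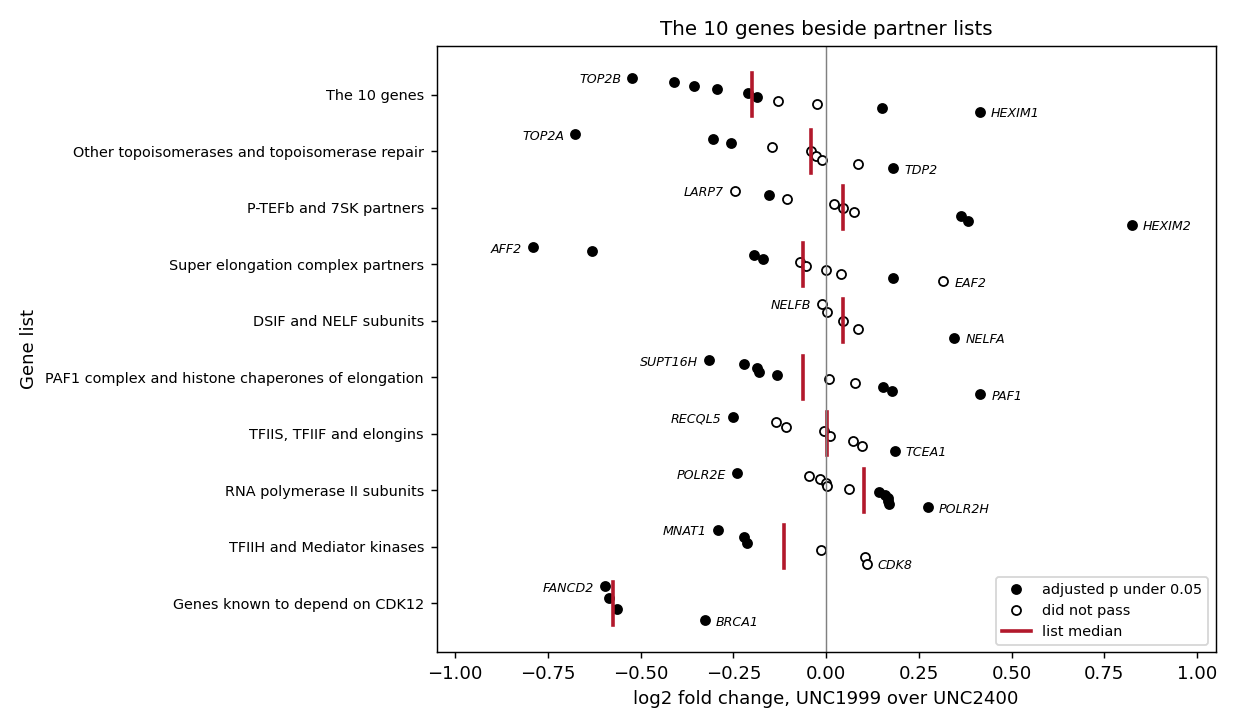
Log2 fold change, UNC1999 over UNC2400 (horizontal axis), of each tested gene of the 10 and of 9 partner lists. Filled points have an edgeR adjusted p under 0.05, open points do not, and red lines are list medians. The median is -0.20 for the 10 genes and -0.58 for the 4 genes known to depend on CDK12, with the lowest and highest gene of each list named.

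The 10 genes differ widely in the length of DNA they span, and the direction of their changes went with it. HEXIM1, which has 1 exon, spans 3.60 kb and CDK9 5.11 kb, and these 2 rose. The other 8 span 40.5 kb (SUPT5H) to 150 kb (CDK13), and 6 of them fell. Over all tested genes with a known span, the median log2 fold change was 0.19 in the shortest of 4 equal classes (up to 11.7 kb), 0.09 in the next, -0.04 in the one after and -0.25 in the longest class (over 80.2 kb). In the longest class 51.9% of genes were lower and 10.9% higher, and in the shortest 9.96% were lower and 41.4% higher. When offsets for GC content, span and exon length were put in the fit, 3 of the 10 genes passed, where 48.0% of all genes did. TOP2B (-0.48; adjusted p = 7.68e-06), SUPT6H (-0.34; adjusted p = 1.0e-04) and SUPT5H (-0.18; adjusted p = 0.0116) fell in that fit too. The call ended for CDK12 (-0.04; adjusted p = 0.602), CDK13 (-0.05; adjusted p = 0.515), ELL2 (-0.10; adjusted p = 0.137) and HEXIM1 (0.07; adjusted p = 0.357). For CDK9 the sign turned (-0.09; adjusted p = 0.157). TOP1 had -0.06 (adjusted p = 0.416) and AFF4 0.12 (adjusted p = 0.0934). The offsets take out whatever moves with span, length and GC over all genes, be it technical or not, and the 2 cannot be told apart here.

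With the offsets 12 of 73 partner genes rose and 24 fell, where 4013 of all 17596 genes rose and 4426 fell. Among the partners, the rises of CCNT1 (0.33; adjusted p = 5.32e-05), MEPCE (0.19; adjusted p = 0.00594), NELFA (0.50; adjusted p = 4.31e-07) and PAF1 (0.19; adjusted p = 0.00584) passed with the offsets as well. So did the falls of TOP2A (-0.73), AFF2 (-0.27), SUPT16H (-0.36), FANCD2 (-0.51), FANCI (-0.51), ATR (-0.34) and BRCA1 (-0.14; adjusted p = 0.0385). Those of MNAT1 (-0.04; adjusted p = 0.616), CDC73 (adjusted p = 0.957), MLLT1 (-0.02; adjusted p = 0.807), AFF3 (-0.08; adjusted p = 0.739), AFF1 (0.12; adjusted p = 0.0742) and CCNH (-0.12; adjusted p = 0.126) did not, nor did the rises of EAF1 (0.05; adjusted p = 0.45) and POLR2H (0.11; adjusted p = 0.144).

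**Figure D4:**
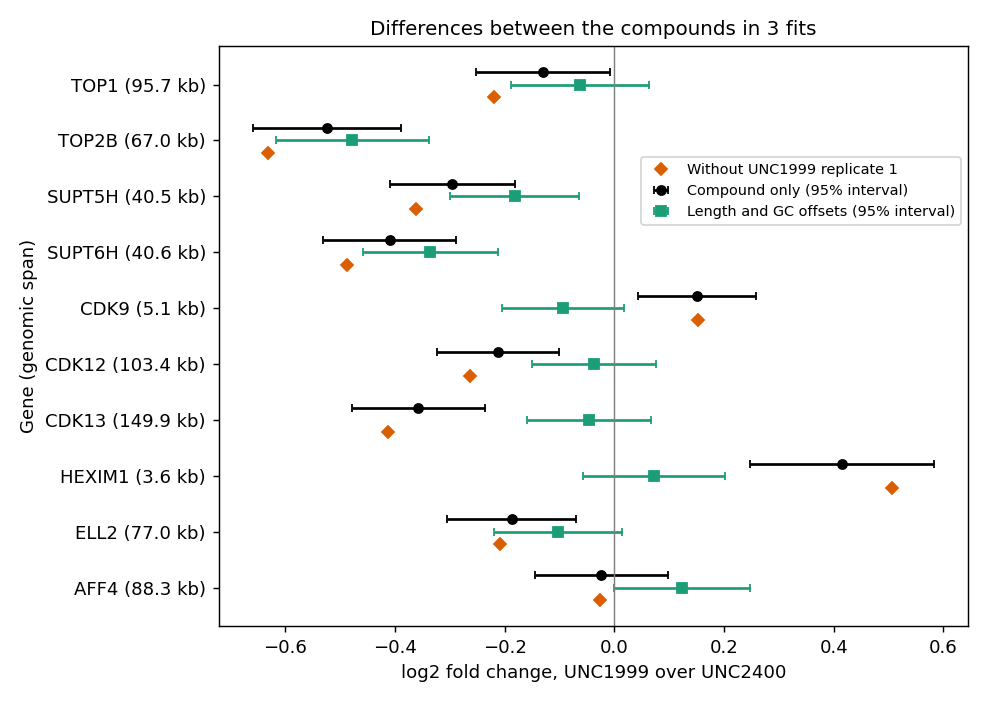
Log2 fold change, UNC1999 over UNC2400 (horizontal axis), of each gene, with its genomic span, with compound as the sole term (black circles), with length and GC offsets (green squares) and without UNC1999 replicate 1 (orange diamonds). Bars on circles and squares are 95% intervals, and diamonds have none. TOP2B moves little with the offsets (-0.52 and -0.48), while HEXIM1 (0.42 and 0.07) and CDK13 (-0.36 and -0.05) move toward 0.

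UNC1999 replicate 1 was the UNC1999 library nearest to the UNC2400 mean for 8 of the 10 genes, the exceptions being ELL2 and AFF4. By another measure, it lay nearer than the mean of the other UNC1999 libraries for 9 of the 10 genes. The same held for 82.7% of all genes past the threshold. The largest such gaps were those of TOP1, TOP2B and HEXIM1. In log2 CPM, HEXIM1 was 0.16 above the UNC2400 mean in that library and 0.53 above it in the mean of the other UNC1999 libraries. For TOP2B these differences were -0.36 and -0.61, and for TOP1 0.00 and -0.20. ELL2 was equally far below in both (-0.19 and -0.19). In the authors' deposited log2 values, which are marked as batch-corrected, the groups did not overlap for 8 of the 10 genes, against 66.1% of all genes there. HEXIM1 had 5.57, 5.81 and 5.82 in UNC1999 replicates 1 to 3, against 5.54, 5.30 and 5.27 in UNC2400 replicates 1 to 3 in those log2 values. UNC1999 replicate 1 was the nearest to the UNC2400 mean for 7 of the 10 genes there, the exceptions being CDK13, ELL2 and AFF4. For neither count of nearest libraries was a share over all genes computed.

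Levels of different genes were compared per kilobase of joined exons. In UNC2400 the order was TOP1 (59.2 CPM per kb), TOP2B (57.5), CDK9 (26.1), SUPT5H (23.3), SUPT6H (20.1), CDK12 (13.1), AFF4 (11.9 to 13.9 over its libraries), HEXIM1 (11.3), ELL2 (6.07) and CDK13 (3.58). TOP1 and TOP2B overlapped there, as did CDK12 and AFF4, and the other neighbours did not. In UNC1999, TOP1 (54.1 ± 4.4 CPM per kb) and TOP2B (40.0 ± 4.15 CPM per kb) no longer overlapped (SD, n = 3 each). HEXIM1 ranked 6 in UNC1999 with 15.1 ± 2.14 CPM per kb and 8 in UNC2400 with 11.3 ± 0.433 CPM per kb (SD, n = 3 each). In UNC1999 it overlapped with SUPT6H (15.1 CPM per kb) and AFF4 (12.8 CPM per kb). In UNC1999 the order ran on from TOP1 and TOP2B with CDK9 (28.1 to 30.4 CPM per kb over its libraries), SUPT5H (19.0 CPM per kb), SUPT6H, HEXIM1, AFF4, CDK12 (11.3), ELL2 (5.33) and CDK13 (2.80), and no neighbours overlapped apart from those with HEXIM1. Exon lengths came from another build and join all transcripts of a gene, which lowers the value of genes with long rare exons, such as CDK13 with 25.1 kb.

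**Figure D5:**
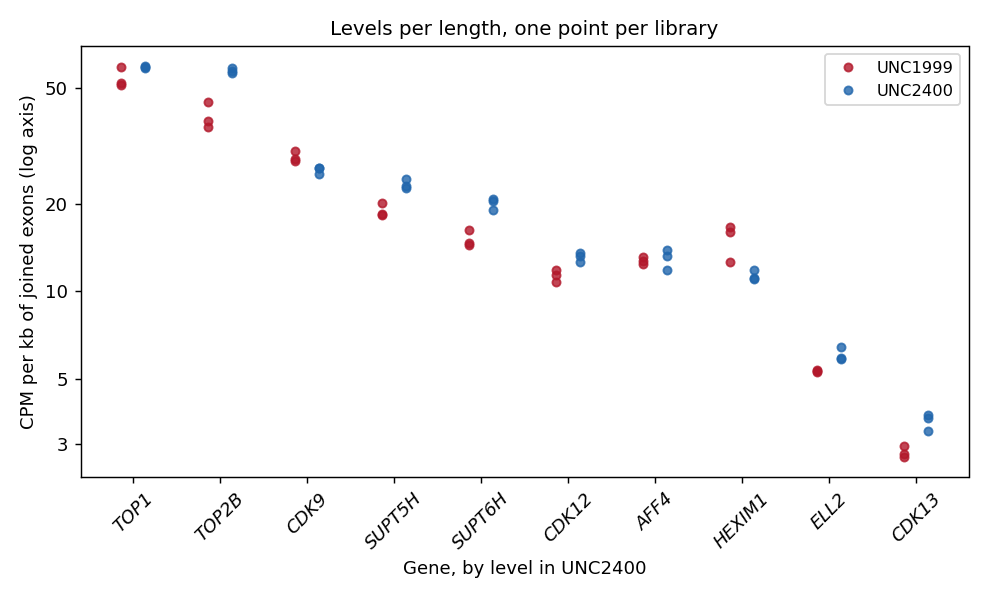
CPM per kb of joined exons (log axis) of the 10 genes, 1 point per library, with UNC1999 in red left of UNC2400 in blue. Genes are ordered by their UNC2400 mean. TOP1 and TOP2B overlap at 57.5 to 59.2 CPM per kb on average in UNC2400 and are parted in UNC1999, and HEXIM1 is higher in UNC1999.

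For each of the 10 genes, the gene with the most similar course over the 6 libraries was sought among the other members and the 9 partner lists (82 genes). Likeness was the root mean square difference of log2 CPM centred on each gene's mean. CDK13 was nearest to SUPT6H (0.0422), and SUPT6H in turn to CDK13. TOP2B was nearest to ATR (0.0293), then to FANCI (0.0434) and FANCD2 (0.0541). HEXIM1 was nearest to CCNT1 (0.0694) and MEPCE (0.0753). CDK9 was nearest to EAF1 (0.0237), CDK12 to SSRP1 (0.0215), ELL2 to MLLT1 (0.0331), SUPT5H to SUPT16H (0.0497), TOP1 to SRSF2 (0.0386) and AFF4 to POLR2A (0.0566). With 6 libraries in 2 groups, such likeness mostly reflects the size and direction of the difference between the compounds.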

How the data were processed

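RNA-seq libraries made from 200 ng of RNA with poly(A) selection and a kit that marks strand were grouped by title, 3 per compound. The authors deposited whole-number counts per gene name, without normalization and marked as having duplicates removed. The submitters' processing notes list build hg19, Subread 1.5.0, featureCounts, TopHat2 2.0.13 and Trim Galore 0.4.0. Not given in the sources used here are the annotation, whether counting used strand, and what was done with multiply matching reads. The authors also deposited log2 values marked as batch-corrected and a comparison table with limma's column names, which holds log2 fold changes, test scores and p-values, per the file headers. The scores were not used.

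Counts were tested by the two-sided quasi-likelihood F test of edgeR 4.0.16 (R 4.3.3) with compound as the sole term, TMM factors and the default low-count filter, adjusted by Benjamini-Hochberg over 17596 genes with a threshold of 0.05. SE is the absolute log2 fold change over the square root of F. Fold changes (log2) are UNC1999 over UNC2400, and log2 CPM used a prior count of 2. The fit was tested on simulated data. Alternatives were RLE and upper-quartile factors, no filter, DESeq2 1.42.0, limma-voom (limma 3.58.1), a replicate block, each library left out, and offsets for span, joined exon length and GC from GENCODE release 29 (splines per library). Of the genes tested, 84.2% had these properties, as did 89.0% of the genes called, and the rest were given the median property. Promoter sequences are RefSeq's, build GRCh38.p14.

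The 10 genes and all lists were chosen with earlier results of these data known. Named were the 10 genes, genes in ratios, and up to 4 genes per list with the smallest p. Genes of nearest course to one of the 10 were named too. CCNK, CDK8, LARP7 and RN7SK fall outside that rule and were chosen after their values were seen. Depth sets the precision: a count of 0 allows up to 3 counts, or 0.0708 to 0.101 CPM per library, which covers counting error only.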

Additional observations from a re-analysis of the deposited data

How the results depend on the processing

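TOP2B, SUPT5H and SUPT6H kept their direction and call in all 14 alternatives, and AFF4 passed in none. Of 140 alternative values of the 10 genes, 122 kept their side of the threshold and, AFF4 apart, their direction. The log2 fold change of AFF4 ranged from -0.09 to 0.12 over its alternatives. With length and GC offsets none of the 10 was higher (0, against 2) and 3 were lower (against 6), also 0 and 3 with a replicate block added to the offsets, an alternative chosen after seeing the data. In these fits CDK9 was at -0.094 and -0.095, AFF1 at 0.12 and 0.12, POLR2K at -0.14 and -0.14 and POLR2G at -0.14 and -0.14, all with their sign turned. POLR2K (0.17) and POLR2G (0.16) passed as higher in the main fit. With the offsets alone both passed as lower (adjusted p = 0.0270 and 0.0471), while CDK9 and AFF1 did not pass. With DESeq2 or no low-count filter 1 of the 10 was higher. Of all genes, 8345 of 17596 passed in either direction with DESeq2 and 8904 of 36090 with no filter. With no filter 9 partner genes were higher, against 16. Leaving out each library, 1 to 2 of the 10 were higher and 5 to 7 lower, and 7 to 17 partner genes were higher and 19 to 28 lower. The calls over all genes moved too, from 7747 of 18027 without UNC1999 replicate 3 to 10076 of 18004 without UNC1999 replicate 1. The cause was not tested.

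With the replicate block, TOP1 passed (-0.13; adjusted p = 0.0378) and no other call among the 10 changed. Same-numbered libraries had deviations from their group means that correlated at 0.02, 0.08 and 0.12. All libraries but UNC2400 replicate 1 correlated best with their own number in the other group. By label such libraries share only a number, and whether a number marks a batch is not stated. A sign-flip test within numbers cannot give a p below 0.25. Promoter and gene property values come from another build. Depth did not limit the 10 genes, the lowest of which had 1210 counts in a library.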
